A study of Mus musculus and Homo sapiens with 10 samples.

Results

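The windows of Esrrb, Tbx3, Tfcp2l1 and Prdm14, 4 genes of naive pluripotency, were examined for histone H3 acetylation in mouse embryonic stem cells (mESC). Members were all acetylation islands overlapping a fixed mm9 window by at least 1 bp, with no use of their values. The windows were chr12:87680000-87890000 for Esrrb (210 kb), chr5:120080000-120180000 for Tbx3 (100 kb), chr1:120500000-120610000 for Tfcp2l1 (110 kb) and chr1:13070000-13150000 for Prdm14 (80 kb). They held 95 of the 272566 islands of the 3 mESC lists. Of these, 36 of 92957 were H3K122ac islands, 19 of 57512 were H3K64ac islands and 40 of 122097 were H3K27ac islands.

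The study mapped acetylation of H3 at K122 and K64, in the globular domain, beside the tail mark H3K27ac, and its title links globular-domain acetylation to enhancers. The cells were the 46c line, which carries a Sox1-GFP reporter, taken undifferentiated at passages 25 to 28. They were grown without feeders in serum-containing medium with LIF. Chromatin was cut with micrococcal nuclease and precipitated with an antibody to H3K122ac, H3K64ac or H3K27ac. Each mark had 2 replicates, which the authors merged before islands were called, so each mark is 1 list of 1 cell line, with no replicate spread and no test between conditions. The 4 libraries of human K562 cells in the series were not used here. An island is a run of enriched 200 bp bins, and each is listed with its ChIP reads and the reads of a background library. The lists held 44320255 ChIP reads inside H3K122ac islands, 38692934 inside H3K64ac islands and 40473895 inside H3K27ac islands.

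Naive pluripotency is the state of the early epiblast that LIF helps to maintain in culture, and it rests on a network of transcription factors. Esrrb is an orphan nuclear receptor, Tbx3 a T-box factor and Tfcp2l1 a factor of the grainyhead/CP2 family that acts downstream of LIF and STAT3. Prdm14 is a PR-domain zinc finger protein known to repress FGF signalling and the de novo DNA methyltransferases. H3K27ac lies on the histone tail and is widely used to mark active promoters and enhancers. K122 and K64 lie in the globular part of H3, near the DNA wound around it, and their acetylation is linked to open chromatin.

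In the GRCm38.p6 gene table, Esrrb lies between the protein-coding genes Gpatch2l and Vash1, Tbx3 between Med13l and Tbx5, Tfcp2l1 between Clasp1 and Gli2, and Prdm14 between Slco5a1 and Ncoa2. The islands are on mm9, so no island was placed in an exon, an intron or a promoter, and islands are given by position. Promoter sequences of 2 of the 4 genes were matched in RefSeq on GRCm38.p6, 2 starts of Esrrb and 1 of Tfcp2l1. They are shown because they let the reader see how the start regions of these 2 genes differ in base composition. Each runs 5′ to 3′ on the plus strand, from 250 bases before to 50 bases after the start site. Capitals mark motifs found by an exact search on both strands for the TATA box (TATAAA), the ESRRB site (AAGGTCA), the GC box (GGGCGG), the CACCC box (CCACCC), the CCAAT box (CCAAT), the T-box site (AGGTGTGA), the E-box (CACGTG) and the POU octamer (ATGCAAAT).
Esrrb, GRCm38.p6 chr12:86360867-86361166: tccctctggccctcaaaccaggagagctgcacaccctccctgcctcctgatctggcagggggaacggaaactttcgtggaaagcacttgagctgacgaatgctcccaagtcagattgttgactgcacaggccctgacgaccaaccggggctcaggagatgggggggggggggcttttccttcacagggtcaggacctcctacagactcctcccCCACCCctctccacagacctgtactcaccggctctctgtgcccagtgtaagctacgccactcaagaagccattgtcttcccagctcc
Esrrb, GRCm38.p6 chr12:86421394-86421693: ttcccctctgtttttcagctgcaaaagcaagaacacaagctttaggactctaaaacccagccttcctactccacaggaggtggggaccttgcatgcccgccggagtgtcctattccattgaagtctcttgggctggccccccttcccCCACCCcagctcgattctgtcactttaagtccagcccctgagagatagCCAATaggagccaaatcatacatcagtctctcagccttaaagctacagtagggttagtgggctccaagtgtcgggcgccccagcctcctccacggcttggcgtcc
Tfcp2l1, GRCm38.p6 chr1:118627695-118627994: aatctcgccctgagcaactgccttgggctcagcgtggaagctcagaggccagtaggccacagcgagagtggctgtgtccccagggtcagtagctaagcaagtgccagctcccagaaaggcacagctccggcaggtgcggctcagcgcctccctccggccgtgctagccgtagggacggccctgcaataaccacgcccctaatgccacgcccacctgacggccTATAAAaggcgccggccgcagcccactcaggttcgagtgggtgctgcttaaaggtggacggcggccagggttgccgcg

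The Tfcp2l1 promoter held 21 CpG dinucleotides at a GC content of 65.3%. The Esrrb promoters held 7 CpG each, at 60% GC for the first and 55.3% for the second, and the median of 32851 RefSeq promoters was 7 CpG and 52.7% GC. Tfcp2l1 had a TATA box, TATAAA, at -28 from the start site, a motif present in 13.6% of the promoters. The first Esrrb promoter had a CACCC box, CCACCC, at -37, found in 31.5% of promoters. The second had the same box at -103 and a CCAAT box at -55, found in 37.4% of promoters. The ESRRB site was in none of these 3 promoters and in 4.72% of all. The GC box (35.7% of all), the T-box site (1.28%), the E-box (7.15%) and the POU octamer (1.74%) were also in none of the 3.

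All 4 windows carried long stretches of H3K122ac and H3K64ac, and they differed in how much H3K27ac lay within them. H3K122ac covered 68.4 kb of the Tbx3 window, 42.8 kb of Prdm14, 81.6 kb of Esrrb and 26.2 kb of Tfcp2l1, which is 68.4%, 53.5%, 38.9% and 23.8% of the window. H3K64ac covered 68.0 kb of Tbx3, 41.4 kb of Prdm14, 39.6 kb of Tfcp2l1 and 70.6 kb of Esrrb, or 68%, 51.8%, 36% and 33.6%. H3K27ac covered 24.6 kb of Prdm14, 33.2 kb of Tfcp2l1, 58.0 kb of Esrrb and 13.6 kb of Tbx3, or 30.8%, 30.2%, 27.6% and 13.6%. Tbx3 thus had the highest share of the 4 for both globular marks and the lowest for H3K27ac. In bulk chromatin, a mark in fewer cells and less of it per cell cannot be told apart. A stretch said to be without a mark is one where no island of that mark was called.

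**Figure D1:**
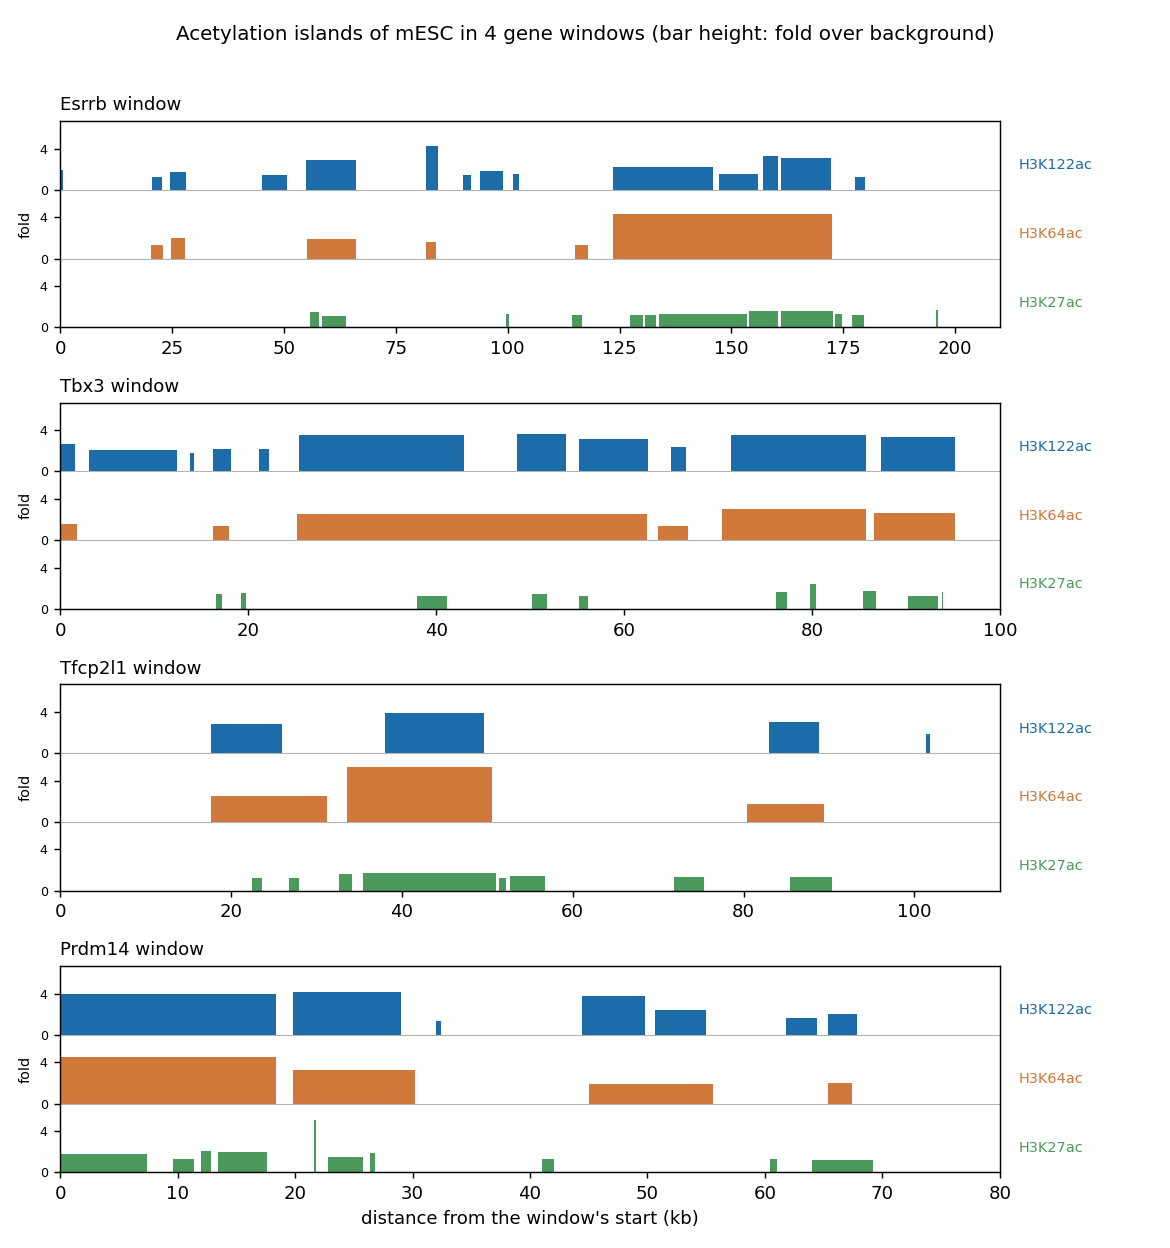
Islands of H3K122ac, H3K64ac and H3K27ac in the 4 windows, with distance from the window's start in kb on the x axis and fold over background as bar height; islands are clipped at the window's edges. The H3K64ac track shows 1 island of 48.8 kb in the Esrrb window and 1 of 37.2 kb in the Tbx3 window. The Tbx3 window shows 10 H3K27ac islands of at most 3.2 kb, and 89.5% of the H3K27ac list is shorter than 3.2 kb.

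As background, the genome was divided into tiles of each window's length and the share of tiles covered at least as much as the window was counted. The median tile of 100 kb had 4.2 kb of H3K122ac, 3.0 kb of H3K64ac and 3.6 kb of H3K27ac. For Tbx3, 0.0986% of 26374 tiles reached its H3K122ac cover, 0.205% its H3K64ac cover and 18.5% its H3K27ac cover. For Prdm14, 1.05%, 1.48% and 4.57% of 32967 tiles reached the cover of H3K122ac, H3K64ac and H3K27ac. For Esrrb the shares of 12554 tiles were 2.25%, 3.82% and 3.81% in the same order of marks. For Tfcp2l1 they were 11.1%, 4.14% and 4.05% of 23975 tiles. All 12 shares are descriptions, since the windows were drawn around genes already known in these cells.

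The member islands were longer than their lists and had lower median folds. The authors' fold is the ratio of ChIP to background reads divided by 1 library ratio per list, so folds are set against their own list. The median length was 5200 bp for member H3K122ac islands, against 1800 bp in the list. It was 9000 bp against 2600 bp for H3K64ac and 1700 bp against 1200 bp for H3K27ac. Islands of 10000 bp or more were 7 of 36 for H3K122ac (2.01% of the list), 9 of 19 for H3K64ac (4.81%) and 3 of 40 for H3K27ac (0.454%). The median fold was 2.31 in member H3K122ac islands and 2.83 in the list. It was 1.95 and 2.42 for H3K64ac, and 1.36 and 1.49 for H3K27ac. A fold of 3 or more was reached by 13 of 36 member H3K122ac islands (46.3% of the list), 5 of 19 H3K64ac islands (36.2%) and 1 of 40 H3K27ac islands (4.44%). Background reads per kb were also higher in the members, with medians of 74.8, 68.3 and 73.0 for H3K122ac, H3K64ac and H3K27ac against 61.9, 58.3 and 60 in the lists. The part of background level in the lower folds was not tested.

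**Figure D2:**
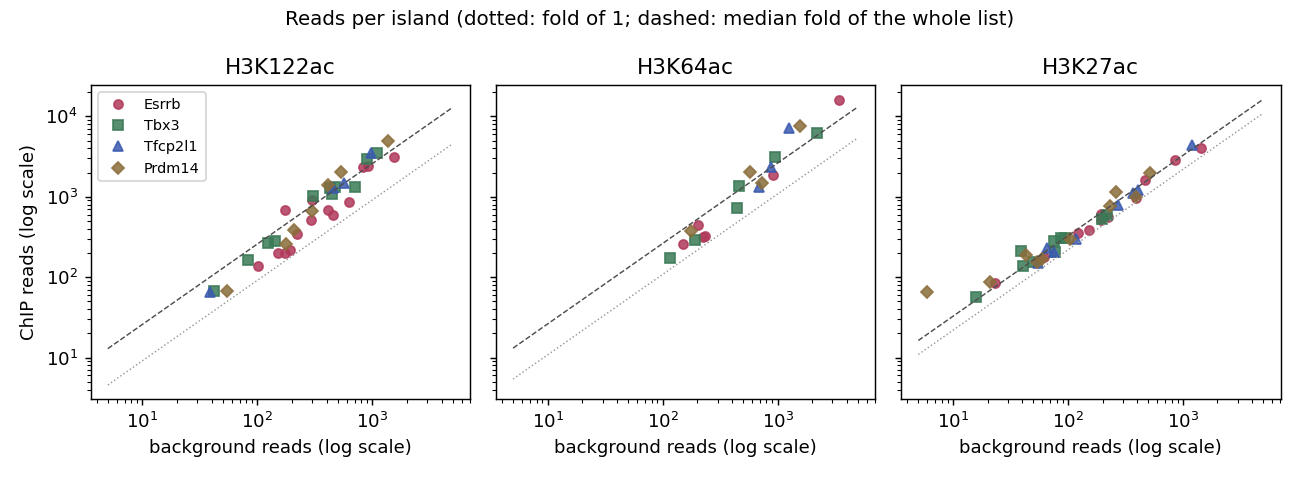
ChIP reads against background reads for the 95 member islands, 1 panel per mark, both axes logarithmic; the dotted line is a fold of 1 and the dashed line the median fold of the whole list. Most H3K27ac islands lie close to both lines, and the one of highest fold, 5.03 in the Prdm14 window, lies furthest above them. The longest H3K64ac island of each of the 4 windows lies above the dashed line.

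Reads summed over a window gave a pooled fold, with exact (Clopper-Pearson) 95% intervals. Intervals here cover counting error only, since the replicates were merged and give no spread. Reads without molecular identifiers are not independent molecules, so the intervals may be too narrow even for counting error. For H3K122ac, 9717 ChIP reads over 3053 background reads gave 3.49 (3.35 to 3.63) for Prdm14. Tfcp2l1 had 3.38 (3.22 to 3.56) from 6299 over 2040 reads, Tbx3 3.08 (2.97 to 3.18) from 13284 over 4731 and Esrrb 2.28 (2.21 to 2.35) from 13272 over 6371. Prdm14 and Tfcp2l1 overlapped in their intervals, and Tbx3 and Esrrb each stood apart below them. The pooled fold of the whole H3K122ac list was 3.36.

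For H3K64ac, Tfcp2l1 had a pooled fold of 3.56 (3.41 to 3.71) from 10832 ChIP over 2812 background reads. Prdm14 had 3.5 (3.36 to 3.64) from 11522 over 3043, Esrrb 3.47 (3.37 to 3.58) from 19296 over 5132 and Tbx3 2.49 (2.41 to 2.58) from 11812 over 4377. The first 3 did not differ beyond their intervals, Tbx3 lay below them, and the whole list had 2.93. The order turned without the longest H3K64ac island of each window: the pooled fold was then 1.73 for Esrrb, 2.17 for Tfcp2l1, 2.40 for Prdm14 and 2.40 for Tbx3, so Esrrb was lowest and Tbx3 no longer lay below the others. The Esrrb and Tfcp2l1 values moved by over 1.5 times, and that of Tbx3 hardly moved. The H3K122ac values without the longest island were 2.29, 2.90, 3.13 and 2.93 for Esrrb, Tfcp2l1, Prdm14 and Tbx3. The interval of Tbx3 (2.82 to 3.04) then overlapped those of Tfcp2l1 (2.70 to 3.11) and Prdm14 (2.96 to 3.31). Tbx3 thus no longer stood apart below them for H3K122ac, while Esrrb (2.21 to 2.37) still did.

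For H3K27ac the windows spanned a narrow range. The pooled fold was 1.57 (1.49 to 1.66) for Prdm14 from 5801 over 1690 reads, 1.5 (1.44 to 1.57) for Tfcp2l1 from 8407 over 2563, 1.41 (1.31 to 1.52) for Tbx3 from 2773 over 898 and 1.35 (1.30 to 1.39) for Esrrb from 12762 over 4339. Each neighbour in this order overlapped the next in its interval, while Esrrb lay below Tfcp2l1 and Prdm14 beyond theirs. The whole list had 1.5. Set over the value of its own list, the Esrrb window was at 0.679 for H3K122ac, 1.19 for H3K64ac and 0.899 for H3K27ac. The corresponding ratios were 0.915, 0.852 and 0.944 for Tbx3, 1.01, 1.22 and 1.00 for Tfcp2l1, and 1.04, 1.19 and 1.05 for Prdm14.

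**Figure D3:**
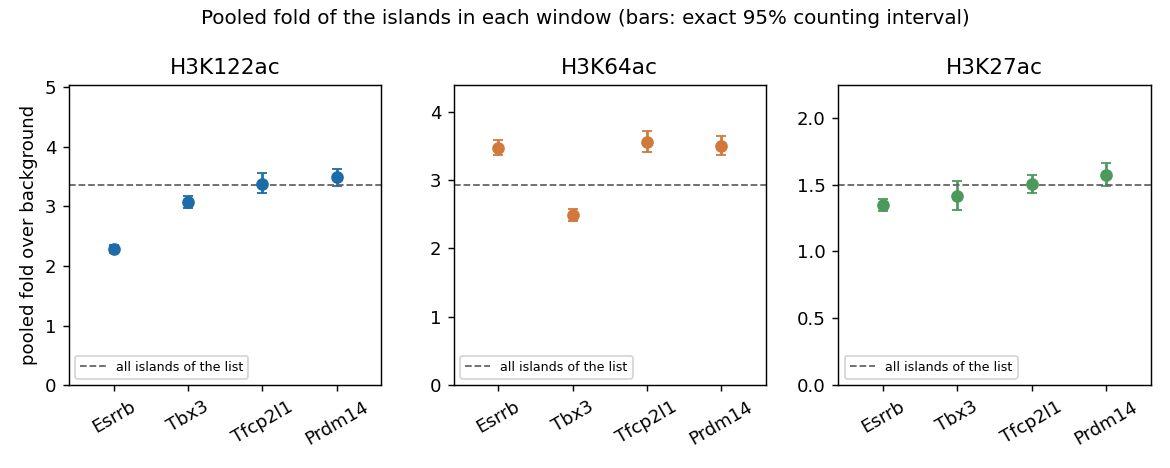
Pooled fold of the islands in each window, 1 panel per mark with its own y axis from 0; bars are exact 95% counting intervals and the dashed line is the pooled fold of all islands of the list. Esrrb stands lowest for H3K122ac at 2.28 and Tbx3 lowest for H3K64ac at 2.49, while H3K27ac spans 1.35 to 1.57.

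The Esrrb window had 14 H3K122ac, 6 H3K64ac and 12 H3K27ac islands, and 1 domain dominated H3K64ac. The H3K64ac island chr12:87803601-87852400 was 48800 bp long and held 16073 ChIP and 3407 background reads, a fold of 4.36 (4.20 to 4.52). It was the 13th longest of the 57512 H3K64ac islands and held 83.3% of the H3K64ac reads of the window's islands. In the H3K122ac list the same stretch was broken into 4 islands, which together had 7272 ChIP and 3283 background reads and a pooled fold of 2.43. Their folds ran along the stretch as 2.25 over chr12:87803601-87825800 (22200 bp, 3152 over 1533 reads), 1.52 over chr12:87827201-87836000, 3.30 over chr12:87837001-87840400 and 3.13 over chr12:87841201-87852200. H3K122ac was thus lower in the first 2 of these islands than in the last 2, beyond their counting intervals.

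H3K27ac in the same Esrrb domain formed 5 islands with 9611 ChIP and 3173 background reads, a pooled fold of 1.39. The longest of them, chr12:87813801-87833600, was 19800 bp long, the 32nd longest of 122097, with 4070 over 1448 reads and a fold of 1.29 (1.21 to 1.37). The islands towards higher coordinates had more: chr12:87834001-87840400 had 1.56 (1.41 to 1.73) from 1608 over 472 reads, and chr12:87841201-87852800 had 1.54 (1.42 to 1.66) from 2869 over 855 reads. H3K122ac and H3K27ac were therefore both higher towards the upper end of the domain. A value of H3K64ac within the domain could not be set beside them, because the list gives 1 value for the whole island.

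A second Esrrb domain, chr12:87735001-87746000, had the marks in another proportion. H3K122ac had 2420 over 915 reads there and a fold of 2.90 (2.68 to 3.13), and H3K64ac, over chr12:87735201-87746000, had 1882 over 910 reads and a fold of 1.91 (1.76 to 2.07). H3K64ac was thus less than in the 48.8 kb domain, and H3K122ac more, beyond the counting intervals of both. Of its 2 H3K27ac islands, chr12:87735801-87737800 had a fold of 1.44 from 609 over 193 reads and chr12:87738601-87743800 had 1.14 from 974 over 391 reads.

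The highest H3K122ac fold among the members lay in the Esrrb window at chr12:87761801-87764400, an island of 2600 bp without H3K27ac. It had 684 ChIP and 175 background reads, a fold of 4.28 (3.62 to 5.08), higher than 73.4% of the list. H3K64ac at the same start, chr12:87761801-87764000, had 255 over 150 reads and a fold of 1.57 (1.28 to 1.94). The nearest H3K27ac island was 15200 bp from the H3K122ac island. In all, 8 of the 14 Esrrb H3K122ac islands met no H3K27ac, against 41297 of 92957 in the list, and the others of this kind were weaker. The next in fold were chr12:87677001-87680600, which crosses the window's edge, with 1.93 (510 over 290 reads), and chr12:87773801-87779000 with 1.84 (688 over 409 reads).

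H3K64ac islands without H3K27ac numbered 3 of 6 in the Esrrb window, against 15803 of 57512 in the list. Besides the one just given, chr12:87704801-87707800 had a fold of 2.02 from 448 over 205 reads and chr12:87700201-87703000 had 1.28 from 312 over 225 reads. The H3K64ac island chr12:87795001-87798000 (1.28, 326 over 235 reads) was the only H3K64ac member to meet no H3K122ac, and it met H3K27ac. Of the 12 H3K27ac islands, 3 met neither globular mark, or 25%, against 40.1% of the list. The one of highest fold, chr12:87875801-87876200, had 85 over 23 reads and a fold of 1.69 (1.06 to 2.81), and lay 16000 bp from the nearest globular island.

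The Tbx3 window was the one in which globular acetylation extended furthest beyond H3K27ac. Both globular marks without H3K27ac covered 45.2 kb, which is 56.1% of the length with any mark, and all 3 marks together covered 12.0 kb, or 14.9%. Over all mESC islands these shares were 20.4% and 25.1%. The H3K64ac island chr5:120105201-120142400 was 37200 bp long, the 58th longest of its list, with 6181 over 2209 reads and a fold of 2.59 (2.46 to 2.72). Within it lay most of 3 H3K122ac islands: chr5:120105401-120123000 (17600 bp) with 3540 over 1087 reads and a fold of 3.57, chr5:120128601-120133800 with 1009 over 305 reads and 3.62, and chr5:120135201-120142600 with 1340 over 472 reads and 3.11. H3K122ac was nearly even along the domain, with intervals that overlapped. The 3 H3K27ac islands inside it were 3200, 1600 and 1000 bp long, with folds of 1.24, 1.47 and 1.22.

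A second Tbx3 domain, chr5:120150401-120175200, held 2 islands of each globular mark and 5 of H3K27ac. H3K122ac had folds of 3.57 over chr5:120151401-120165800 (2920 over 896 reads) and 3.33 over chr5:120167401-120175200 (1300 over 427 reads). H3K64ac had 3.0 over chr5:120150401-120165800 (3101 over 955 reads), the highest H3K64ac fold of the window, and 2.67 over chr5:120166601-120175200 (1341 over 464 reads). The highest H3K27ac fold of the window was here, at chr5:120159801-120160400, a 600 bp island with 209 over 39 reads and a fold of 2.45 (1.74 to 3.55). That fold was above 91.3% of the H3K27ac list. Of the 10 Tbx3 H3K27ac islands none was longer than 3200 bp, and 89.5% of the H3K27ac list was shorter than that length. H3K27ac islands were called with a gap of 200 bp, against 600 bp for the globular marks.

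Globular islands without H3K27ac were found on both sides of the first Tbx3 domain. For H3K122ac these were 5 of 11 islands, against 41297 of 92957 in the list. The Tbx3 islands had folds of 2.62 at chr5:120075201-120081600 (1076 over 450 reads), 2.05 at chr5:120083001-120092400 (1320 over 704), 1.75 at chr5:120093801-120094200 (67 over 42), 2.18 at chr5:120101201-120102200 (165 over 83) and 2.38 at chr5:120145001-120146600 (269 over 124). The first of them crosses the window's edge. For H3K64ac they were 2 of 6, against 15803 of 57512 in the list. The 2 were chr5:120075401-120081800 with 1.53 (727 over 439 reads) and chr5:120143601-120146800 with 1.39 (290 over 193 reads). Of the 10 H3K27ac islands, 1 met neither globular mark, against 40.1% of the list. This island, chr5:120099201-120099800, had 138 over 41 reads and a fold of 1.54.

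The Tfcp2l1 window had the highest H3K64ac fold of the 4 windows. The H3K64ac island chr1:120533601-120550600 (17000 bp) had 7191 over 1259 reads and a fold of 5.28 (4.97 to 5.61), higher than 88.5% of its list. H3K122ac at chr1:120538001-120549600 (11600 bp) had 3466 over 970 reads and a fold of 3.91 (3.64 to 4.21), higher than 69% of its list. H3K27ac at chr1:120535401-120551000 (15600 bp, the 105th longest of its list) had 4421 over 1206 reads and a fold of 1.68 (1.57 to 1.79), higher than 66.5% of its list. This single domain held 66.4% of the H3K64ac reads, 55% of the H3K122ac reads and 52.6% of the H3K27ac reads of the window's islands.

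Domains on either side of it in the Tfcp2l1 window were weaker in all 3 marks. At the lower coordinates, H3K122ac had a fold of 2.84 over chr1:120517601-120526000 (1483 over 572 reads) and H3K64ac 2.48 over chr1:120517601-120531200 (2327 over 868 reads). At the higher coordinates, H3K122ac had 3.06 over chr1:120583001-120588800 (1284 over 459 reads) and H3K64ac 1.77 over chr1:120580401-120589400 (1314 over 685 reads). The H3K27ac islands that met these had folds between 1.18 and 1.35. The only globular island without H3K27ac was a 400 bp H3K122ac island, chr1:120601401-120601800, with 66 over 39 reads and a fold of 1.85. H3K27ac islands without a globular mark numbered 3 of 8, or 37.5%, near the 40.1% of the list, and covered 8.6 kb. The one of highest fold was chr1:120552601-120556800 with 1100 over 366 reads and 1.38 (1.22 to 1.55), and it lay 2000 bp from the nearest H3K64ac island.

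The Prdm14 window had its longest acetylated domain at its lower edge. The H3K64ac island chr1:13058401-13088400 was 30000 bp long and had 7665 over 1557 reads and a fold of 4.55 (4.31 to 4.81). The H3K122ac island chr1:13062201-13088400, the longest H3K122ac member at 26200 bp and the 48th longest of its list, had 4913 over 1373 reads and a fold of 3.92 (3.69 to 4.16). Both start outside the window, which begins at 13070000, so part of their reads lies beyond it. The longest H3K27ac island, chr1:13068401-13077400, crosses the edge too and had 1956 over 515 reads and a fold of 1.74. The H3K27ac island of highest fold with at least 100 ChIP and 10 background reads, chr1:13082001-13082800, had 190 over 43 reads and a fold of 2.02 (1.45 to 2.88).

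A gap of 1400 bp separated this Prdm14 domain from the next in both globular lists. Beyond it, H3K122ac over chr1:13089801-13099000 had 2014 over 532 reads and a fold of 4.15 (3.77 to 4.57), the highest H3K122ac fold of the window. H3K64ac over chr1:13089801-13100200 had 2007 over 572 reads and 3.24 (2.95 to 3.56), less than in the first domain, while the H3K122ac intervals of the 2 domains overlapped. The only member H3K27ac island with a fold of 3 or more lay here, at chr1:13091601-13091800, and is named after its value was seen. Its fold of 5.03 rests on 66 ChIP and 6 background reads in 200 bp and has an interval of 2.19 to 14.2.

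A Prdm14 domain of 11.2 kb, chr1:13114401-13125600, carried both globular marks and no H3K27ac island. H3K122ac formed 2 islands in it, chr1:13114401-13119800 with 1410 over 408 reads and a fold of 3.79 (3.39 to 4.24), and chr1:13120601-13125000 with 659 over 299 reads and 2.41 (2.10 to 2.78). H3K64ac was 1 island over chr1:13115001-13125600 with 1474 over 736 reads and a fold of 1.85 (1.69 to 2.02). The nearest H3K27ac island, chr1:13111001-13112000, lay 2400 bp away and met neither globular mark, with 155 over 54 reads and a fold of 1.31 (0.958 to 1.82). A 400 bp H3K122ac island at chr1:13102001-13102400 (68 over 54 reads, fold 1.38) was the remaining one without H3K27ac.

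Chained by overlap, the members fell into 38 blocks over the 4 windows, with islands beyond a window's edge counted in where they overlapped a member. All 3 marks were present in 11 blocks, which covered 214.2 of the 293.2 kb in blocks. That is the extent of the chained islands, and the 3 marks lay together on 95.4 kb of the windows. H3K122ac with H3K64ac made 7 blocks of 33.4 kb in all, H3K122ac alone 9 blocks of 25.6 kb and H3K27ac alone 9 blocks of 13.6 kb. No block was H3K64ac alone, and 93.5% of all H3K64ac islands in the list met H3K122ac. The block counts are given without a whole-list counterpart. Of the 18 blocks with both globular marks, the H3K64ac fold exceeded the H3K122ac fold beyond the intervals in 3: the 48.8 kb domain of Esrrb, the core domain of Tfcp2l1 and the edge domain of Prdm14. These are the blocks of the longest H3K64ac islands in their windows. In Tbx3 the H3K122ac fold was the higher in all 5 such blocks. As the list medians of H3K122ac and H3K64ac differ, 2.83 and 2.42, the position of a block relative to the others carries the comparison, not which mark is higher in it.

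**Figure D4:**
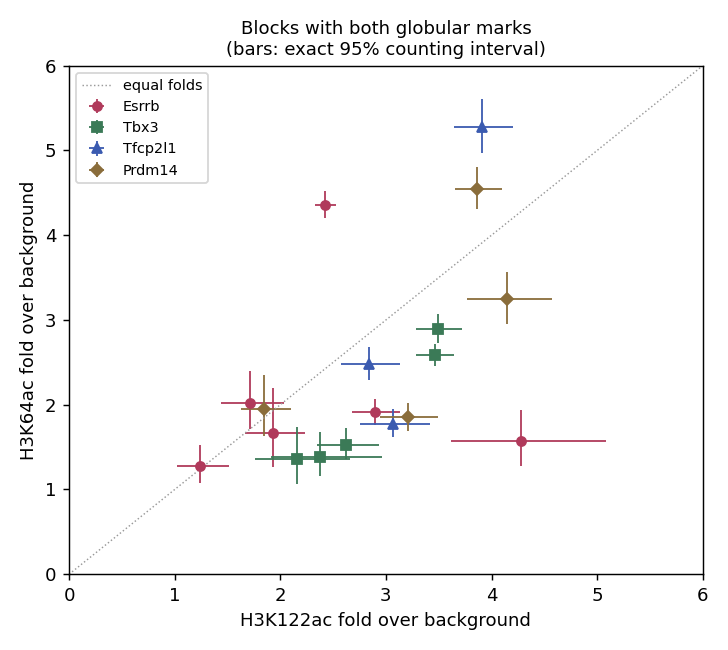
H3K64ac fold against H3K122ac fold for the 18 blocks with both marks, 1 point per block, coloured by gene; bars are exact 95% counting intervals and the dotted line is equal folds. The 48.8 kb Esrrb domain (4.36 against 2.43) lies far above the line and the Esrrb island without H3K27ac (1.57 against 4.28) far below it.

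At an overlap of at least 1 bp, members met another mark in shares whose intervals held the list's share. H3K27ac islands without a globular mark were a smaller share than in the list. Neighbouring islands of 1 merged list are not replicates, so the shares and intervals are descriptions and no test. H3K27ac was met by 19 of 36 H3K122ac islands, or 52.8% (Wilson 95% interval 37.0 to 68.0), against 55.6% of the list. It was met by 13 of 19 H3K64ac islands, or 68.4% (46.0 to 84.6), against 72.5%. Where 50% of the island had to be covered, the share was 27.8% (15.85 to 43.99) for H3K122ac, against 41.0% of the list. For H3K64ac it was 31.6% (15.36 to 53.99), against 50.3%. Both intervals held the list's share. Member globular islands were longer than their lists, and the part of length in these shares was not tested. At a q-value of at most 1e-10 the shares that met H3K27ac were 34.5% for H3K122ac and 53.3% for H3K64ac, against 36.7% and 52.5%. H3K122ac was met by 18 of 19 H3K64ac islands, or 94.7% (75.4 to 99.1), against 93.5%, and H3K64ac by 25 of 36 H3K122ac islands, or 69.4% (53.1 to 82.0), against 60.6%. Of the 40 H3K27ac islands, 9 met neither globular mark, or 22.5% (12.3 to 37.5), against 40.1%. These 9 had folds of 1.26 to 1.69 and lay 600 to 16000 bp from the nearest globular island. Where 50% of the island had to be covered, the share with neither mark was 27.5% (16.1 to 42.8), against 43.3%. At a q-value of at most 1e-10 it was 2 of 16, or 12.5% (3.50 to 36.0), against 23.7%. That last interval held the list's share. The cover of the windows by globular marks, given above, moves with this share, and its part in it was not tested.

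Member globular islands without H3K27ac were shorter and had lower folds than those that met it. For H3K122ac, the median over 17 islands without H3K27ac was a fold of 1.85 at 2600 bp, and over the 19 that met it 3.11 at 8400 bp. The whole list gave 2.34 at 1400 bp without H3K27ac, and 3.31 at 2400 bp where it was met. For H3K64ac the median fold over 6 islands without H3K27ac was 1.55 and over the 13 that met it 2.59, against 1.81 and 2.72 in the whole list. A fold of 3 was reached by 2 of the 17 H3K122ac islands without H3K27ac, the Esrrb island at 4.28 and the Prdm14 island at 3.79. In the whole list it was reached by 14004 of 41297 such islands. Where H3K27ac was met, the counts were 11 of 19 members and 29067 of 51660 in the list.

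Counted by length, the 4 windows held 95.4 kb with all 3 marks and 90.2 kb with both globular marks and no H3K27ac, 34.8% and 32.9% of the marked 273.8 kb. H3K27ac alone covered 20.8 kb, or 7.60%, against 21.2% of the marked length of all mESC islands. The windows split into different patterns. All 3 marks together led in Esrrb with 47.4 kb (51.1%), in Prdm14 with 19.8 kb (40.1%) and in Tfcp2l1 with 16.2 kb (31.8%). Both globular marks without H3K27ac led in Tbx3 and were close behind in Prdm14 with 19.0 kb (38.5%), against 16.4 kb (17.7%) in Esrrb and 9.6 kb (18.8%) in Tfcp2l1. H3K27ac alone covered 11 kb of Tfcp2l1 (21.6%), which is near the 21.2% of all islands, 4.0 kb of Prdm14 (8.10%), 4.4 kb of Esrrb (4.74%) and 1.4 kb of Tbx3 (1.74%). H3K122ac alone covered 15.8 kb of Esrrb (17.0%), 11.2 kb of Tbx3 (13.9%), 3.2 kb of Prdm14 (6.48%) and 0.4 kb of Tfcp2l1 (0.784%), against 16.3% over all islands.

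**Figure D5:**
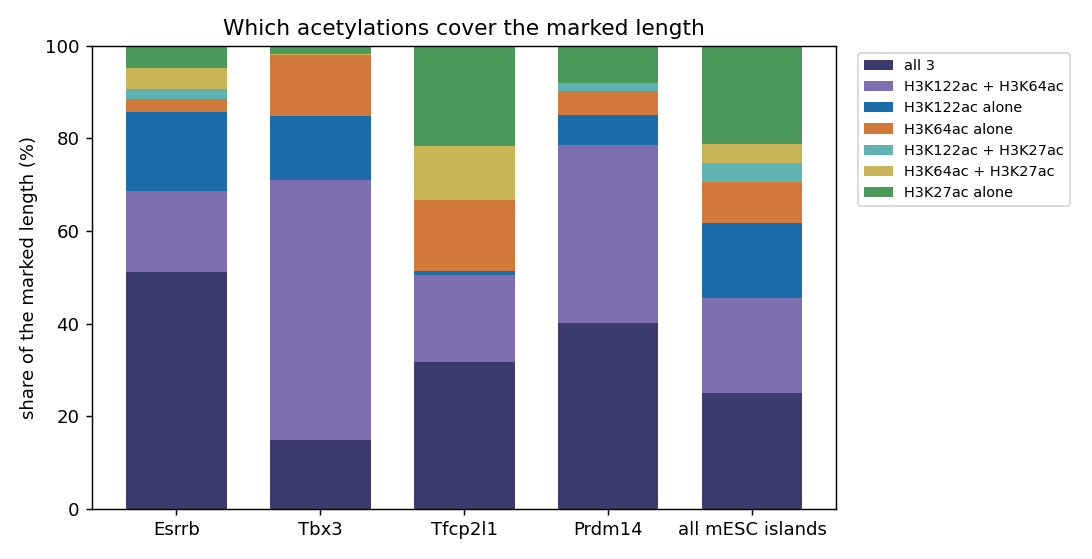
Share of the marked length, in %, covered by each combination of the 3 acetylations, 1 stacked bar per window and 1 for all mESC islands. Both globular marks without H3K27ac take 56.1% in Tbx3, and all 3 marks take 51.1% in Esrrb, against 20.4% and 25.1% over all islands.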

How the data were processed

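Native ChIP with micrococcal nuclease was done in 46c mESC, with 2 replicates for each of 3 antibodies, and groups were taken from the sample titles. The submitters' processing notes list SICER 1.1, HOMER 4.3, Bowtie 0.12.8 and the mouse build mm9, with no role for any tool. Per the labels of the deposited lists, the bin was 200 bp, the gap allowed in an island 600 bp for H3K122ac and H3K64ac and 200 bp for H3K27ac, and the false discovery rate 0.01. The authors merged replicates before calling.

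The deposited read counts per island, ChIP and background, are whole numbers and not normalized. Dividing the ratio of ChIP to background reads by 1 constant per list gives the deposited fold; the constant was recomputed as 0.913 for H3K122ac, 1.08 for H3K64ac and 2.19 for H3K27ac, with a background count of 0 entered as 0.25. The q-value is also the authors'. Where 2 lists held an island with the same ends, its background count was equal, so the lists share a background library, whose identity is not stated in the sources used here.

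Reads were summed per window over whole islands, also where an island crossed the window's edge. Intervals were exact for folds and Wilson for shares. The code was tested on simulated data, with Python 3.11.15, pandas 2.3.3, numpy 2.4.6, scipy 1.17.1 and matplotlib 3.10.9. The members and lists were chosen with earlier results of these data known. The islands to be named were, per window and mark, the one of highest fold with at least 100 ChIP and 10 background reads, the longest, those of a globular mark without H3K27ac (the 3 of highest fold where over 6), the strongest H3K27ac island without a globular mark, and islands with identical ends in all lists, of which there were none. Other islands named, and the domains, were chosen after values were seen. Other pluripotency genes and the cell type markers were not scored, because no mm9 annotation was used here. Alternatives were islands wholly inside the window, windows extended by 20 kb, a q-value of at most 1e-10, each gene left out, H3K27ac islands joined across 600 bp, a 50% overlap, median folds and offset tiles.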

Additional observations from a re-analysis of the deposited data

How the results depend on the processing

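No paired analysis was possible because the replicates of each mark were merged before islands were called. Of 132 values recomputed under the alternatives, 106 moved by less than their interval or 1.5 times, and 26 moved further. Windows extended by 20 kb, H3K27ac islands joined across 600 bp and offset tiles moved no value beyond these limits. Extension still gave 49 H3K122ac islands against 36, and 27 H3K64ac islands against 19. Joining gave 30 H3K27ac islands against 40, and it could not change the values that do not use H3K27ac. With islands wholly inside the window, the pooled fold over all members was 2.81 for H3K122ac and 3.12 for H3K64ac, against 2.88 and 3.22. At a q-value of at most 1e-10 it was 2.95 for H3K122ac, 3.32 for H3K64ac and 1.52 for H3K27ac, 16 H3K27ac islands were left, 34.5% of H3K122ac islands met H3K27ac and 100% of H3K64ac islands met H3K122ac. Where 50% of the island had to be covered, 27.8% of H3K122ac and 31.6% of H3K64ac islands met H3K27ac. As a median over islands, the fold was 2.31 for H3K122ac, 1.95 for H3K64ac and 1.36 for H3K27ac. H3K122ac was thus above H3K64ac where the pooled values had it below. In the whole lists H3K122ac was above H3K64ac both ways, with medians of 2.83 and 2.42 and pooled folds of 3.36 and 2.93. Leaving out each gene in turn gave pooled folds of 2.74 to 3.27 for H3K122ac, 3.09 to 3.5 for H3K64ac and 1.40 to 1.51 for H3K27ac. It gave 92.3% to 100% of H3K64ac islands meeting H3K122ac, 22 to 32 H3K122ac islands, 150 to 208.4 kb of H3K122ac and 73.0 to 117.4 kb of H3K27ac. The values without Esrrb were the 22 islands, the lowest of both lengths and the highest H3K122ac and H3K27ac folds. Without Esrrb the pooled fold was 3.27 for H3K122ac and 3.09 for H3K64ac, so the pooled order of these marks turned. Counting error is wide where background reads are few, as for the Prdm14 fold of 5.03 over 6 background reads (2.19 to 14.2).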

Other observations

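Member islands of different lists shared 1 end in places, and none shared both. The same start and end in the H3K64ac list was found for 0 of 36 member H3K122ac islands, against 5.78% of the H3K122ac list, and 1 shared end for 10 of 36, or 27.8%, against 24.6%. With H3K27ac, 0 of 36 member H3K122ac islands shared both ends and 3 shared 1 (8.33%), against 4.40% and 22.4% of the list. Of 19 member H3K64ac islands, 0 shared either end with H3K27ac, where 3.34% of the list shared both ends and 26.5% shared 1. In the Esrrb domain, H3K122ac and H3K27ac broke at the same 800 bp gap, chr12:87840401-87841200, over which the H3K64ac island ran on. H3K122ac and H3K64ac shared a 1400 bp gap in the Prdm14 window, chr1:13088401-13089800, and a 15800 bp gap in the Esrrb window, chr12:87746001-87761800.

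Of 40 member H3K27ac islands, 23 (57.5%) were wholly inside H3K64ac islands, against 35.5% of the list, and 20 (50%) wholly inside H3K122ac islands, against 36.5%. In the Tbx3 window this was 8 of 10 for each globular mark, and in the Tfcp2l1 window 2 of 8 for H3K64ac and 1 of 8 for H3K122ac. The longer globular islands of the windows move with these shares, and their part in them was not tested.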
